A study of Mus musculus with 12 samples.

Results

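The tumours of mice given an antibody against PD-L1 and nothing else were compared with those of control mice. The samples were taken by their labels, 3 anti-PD-L1 and 3 control tumours, which are 6 of the 12 in the series. All 19921 gene symbols of the tables were considered, of which 18216 had a count in these 6 libraries and 5443 had enough counts to be tested. All mice were wild-type BALB/c and carried Colon26, a mouse colon carcinoma line, grown under the skin of the right flank from 200000 cells. The antibody was given into the peritoneum at 200 µg on days 4 and 8, and tumours were taken on day 10, which is 6 days after the first dose and 2 days after the second. The labels call the other animals control and do not say whether they received another antibody or a vehicle. In 2 further groups of 3, used only where named, mice received the HMGN1 peptide minP1 (0.08 µg on day 9), alone or on top of the same antibody schedule. The labels of the group with both treatments name the peptide in the title only. Each sample came from a separate mouse. Tumours were digested and passed over Percoll to remove tumour cells and dead cells, so the RNA is that of the remaining mixed cells. Libraries read the 5′ end of each polyadenylated transcript.

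PD-L1 is a membrane protein of tumour cells and of myeloid cells that binds the receptor PD-1 on activated T cells and restrains them. Antibodies that block it release that restraint, and T cells that are then active secrete interferon gamma. Interferon gamma is known to raise MHC class I, the proteins that show peptides to CD8 T cells, and to change macrophages and monocytes, which make up much of the immune infiltrate of transplanted mouse tumours.

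Library totals ran from 285753 to 473273 counts in control and from 188008 to 322493 in anti-PD-L1. Bc1, a small noncoding RNA, together with Lrrc17, which may share its reads, took 1.36% to 2.34% of control counts and 2.35% to 4.42% of anti-PD-L1 counts. Genes detected at equal depth numbered 10408 to 11514 in control and 9966 to 10532 in anti-PD-L1. On the first principal component (49.7% of the variance over the 12 libraries) controls lay between -33.63 and -26.68. Anti-PD-L1 replicates 2 and 3 lay at -5.03 and -8.39, and replicate 1, the shallowest of the 6 with the highest Bc1 and Lrrc17 share, stood apart at 17.31. Markers of carcinoma and epithelial cells were nearly absent in both groups, with 10 of 14 in the tables, none tested and a summed level of 25.6 to 37.2 CPM (counts scaled to a common library size) in control and 27.6 to 30.2 in anti-PD-L1. Macrophage markers summed to 1193 to 1437 CPM in control and fibroblast and matrix markers to 1623 to 2094.

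In edgeR's quasi-likelihood test with Benjamini-Hochberg adjustment over all genes tested, 61 genes passed an adjusted p of 0.05, which is 1.12% of the 5443. Of these 30 were higher in anti-PD-L1 (0.551%) and 31 lower (0.57%). With counts scaled by library totals alone the split was less even, with 37% of 73 called genes higher against 49.2%, and the median over all genes moved from -0.03 to -0.12 on the log2 scale. In all 61 the 3 anti-PD-L1 libraries lay outside the range of the 3 controls, as did those of 23.5% of all genes tested. The number called rested on single libraries. It was 1 (Mt1) without control replicate 2, 6 without anti-PD-L1 replicate 2, 12 without replicate 1, 20 without replicate 3, 59 without control replicate 3 and 106 without control replicate 1. With the Bc1 level as a covariate 23 genes were called, 17 of them among the 61, and with the detected-gene number 1 was (Mt1). With all libraries thinned to equal depth 22 were called, 16 of them among the 52 of the 61 that could still be tested. Anti-PD-L1 replicate 1 lay farther from control than replicates 2 and 3 in 40 of the 61 genes. Over all 5443 genes tested, it lay outside the range of replicates 2 and 3, on either side, in 4124. These counts cannot be compared, because the 40 take only the side away from control. The direction of every called gene held under each alternative in which it was tested. Levels are given as CPM in replicates 1, 2 and 3. Log2 fold changes are anti-PD-L1 minus control ± SE, and summed levels are mean ± SD over 3 libraries where so written. Adjusted p-values are from the edgeR test.

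**Figure D1:**
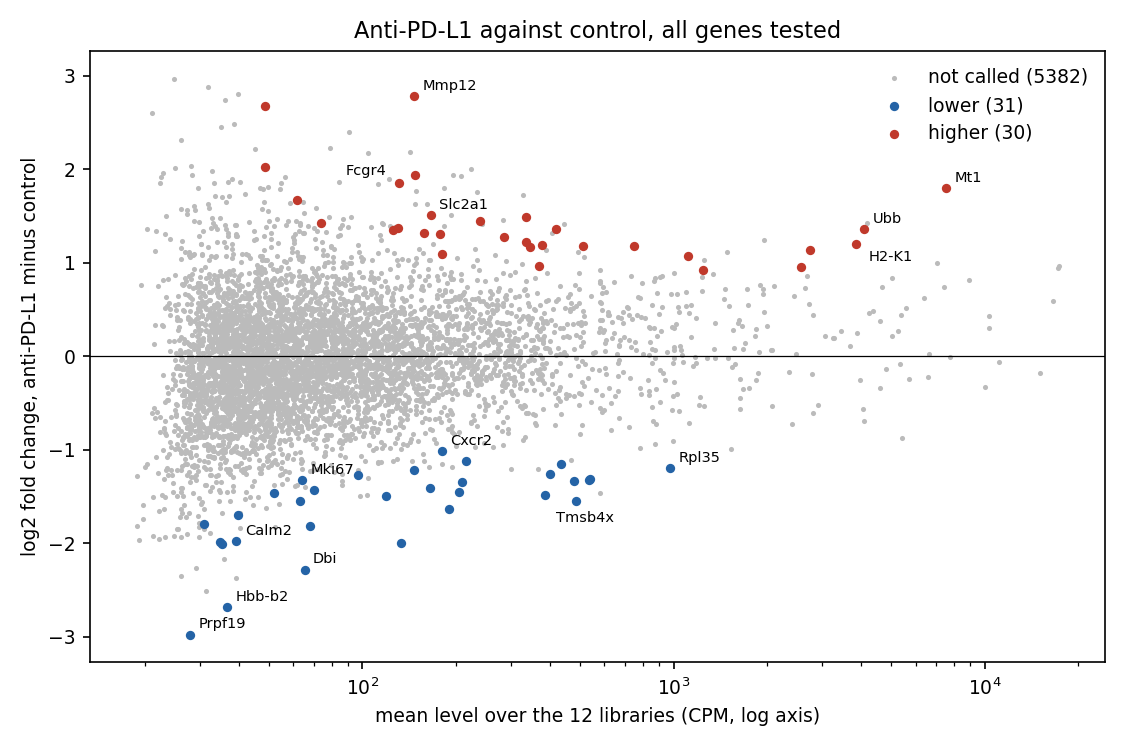
Log2 fold change of anti-PD-L1 over control (vertical axis) against the mean level over the 12 libraries (horizontal log axis, CPM) for the 5443 genes tested. The 30 higher genes (red) reach 2.78 at Mmp12, and the 31 lower genes (blue) reach -2.98 at Prpf19, while Mt1 is the most abundant called gene.

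The smallest adjusted p belonged to Mt1, a metallothionein, a small cysteine-rich protein that binds zinc and copper. Its level was 2270, 2146 and 3930 CPM in the controls and 9175, 9020 and 10960 CPM in the anti-PD-L1 tumours. The lowest treated tumour, at 9020 CPM, lay far above the highest control, and the log2 fold change was 1.80 ± 0.25 (adjusted p = 0.00114, edgeR). It was the 1 gene called under all 17 alternatives, with a log2 fold change between 1.67 and 2.14. Its neighbour Mt2, the other broadly expressed metallothionein, stood at 492, 709 and 1747 CPM in control and 913, 2202 and 3282 CPM in anti-PD-L1. Those groups overlapped, and Mt2 did not pass (1.12 ± 0.42, adjusted p = 0.154). Metallothionein genes are switched on by the zinc-sensing factor MTF1 through metal response elements, whose core was searched as TGCACNC and TGCGCNC on both strands. The window from 250 bases before to 50 after the start of Mt1 (RefSeq, GRCm38.p6, chr8:94178839-94179138, plus strand) holds 3 matches, in capitals, the last 2 of them downstream of the start. It is shown because no other gene was called as stably. The same window of Mt2, which was not called, holds 4 matches.
Mt1 promoter: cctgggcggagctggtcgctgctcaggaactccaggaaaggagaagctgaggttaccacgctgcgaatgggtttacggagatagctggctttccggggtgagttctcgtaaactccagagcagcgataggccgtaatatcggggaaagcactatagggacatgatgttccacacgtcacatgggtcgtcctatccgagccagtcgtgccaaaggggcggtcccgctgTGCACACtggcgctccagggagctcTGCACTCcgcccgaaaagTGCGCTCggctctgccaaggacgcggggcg
A match to TGCACNC occurs in 12.6% of the 32851 promoter windows of the RefSeq table and one to TGCGCNC in 15.4%. Among windows of the genes tested the shares were 11.8% and 27.7%, and among the 33 windows of genes called higher 18.2% and 39.4%. Matches of different motifs may overlap, and a match describes letters, not a bound site.

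Other genes of the metallothionein, iron and oxidative stress list went both ways. Of 15 tested Mt1 was called higher and none lower, and the median was 0.29 beside -0.03 for all genes. Gpx1, a glutathione peroxidase, was at 495, 263 and 195 CPM in control and 139, 163 and 124 CPM in anti-PD-L1 (-1.16 ± 0.31, adjusted p = 0.0558). Hmox1, which degrades haem, gave 1.03 ± 0.34 (adjusted p = 0.116) and Fth1, the ferritin heavy chain, -1.83 ± 0.61 (adjusted p = 0.114), and both overlapped control.

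Several MHC class I genes rose. Of 15 tested members of the list of class I chains and peptide loading factors, 5 were called higher (33.3%, beside 0.551% of all genes tested), none was called lower and 12 had positive fold changes, as 47.8% of all genes tested had. The list's median was 0.63 beside -0.03 for all genes. The list was written with earlier results of these data known, so its count is a description. H2-K1, which encodes a class I heavy chain and lies on the minus strand of chromosome 17 (33996017 to 34000347, GENCODE vM21, GRCm38), was at 1500, 1397 and 2311 CPM in control and 5011, 3600 and 3389 CPM in anti-PD-L1. Its lowest treated library, at 3389 CPM, lay above the highest control, replicate 3 (1.20 ± 0.25, adjusted p = 0.0293). B2m, the light chain that every class I molecule needs, was at 962, 1141 and 1888 CPM in control and 3784, 2410 and 2648 CPM in anti-PD-L1 (1.14 ± 0.26, adjusted p = 0.0352). Tap1, a subunit of the transporter that carries peptides into the endoplasmic reticulum, went from 60.1, 69.5 and 181 CPM to 332, 304 and 245 CPM (1.44 ± 0.33, adjusted p = 0.0352). H2-T22, a nonclassical class I chain that γδ T cells can recognise, rose by 1.37 ± 0.32 (adjusted p = 0.0357). Calr, the chaperone calreticulin, which serves class I loading and other glycoproteins alike, rose by 1.07 ± 0.25 (adjusted p = 0.0357). Control replicate 3 was the highest control for each of these 5 genes. H2-D1, the other measured classical heavy chain, was at 716, 1112 and 1827 CPM in control and 1771, 2028 and 2400 CPM in anti-PD-L1, groups that overlapped through control replicate 3 (0.76 ± 0.27, adjusted p = 0.136). Tapbp (0.63 ± 0.28, adjusted p = 0.238) and Tap2 (0.35 ± 0.31, adjusted p = 0.586) did not pass.

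Summed over the class I list, control libraries held 5859, 6773 and 10180 CPM and anti-PD-L1 libraries 14970, 12550 and 13030 CPM. The sums did not overlap. No member was called without control replicate 2, without anti-PD-L1 replicate 1 or without replicate 2, 2 were called without control replicate 1 or anti-PD-L1 replicate 3, and 7 without control replicate 3. The first 100 bases of the H2-K1 transcripts align at 95% identity or more with those of 22 other genes, 18 of them class I genes or predicted genes in the tables, and those of H2-T22 with H2-T10, so 5′ tags of this family may be divided between members.

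The B2m window is shown because it holds 2 immune motifs close together (RefSeq, GRCm38.p6, chr2:122147437-122147736, plus strand). Capitals mark the interferon-stimulated response element core GAAANNGAA, found in 8.56% of all windows, and the NF-kB motif GGGANTTTC, here on the minus strand, found in 1.11%.
B2m promoter: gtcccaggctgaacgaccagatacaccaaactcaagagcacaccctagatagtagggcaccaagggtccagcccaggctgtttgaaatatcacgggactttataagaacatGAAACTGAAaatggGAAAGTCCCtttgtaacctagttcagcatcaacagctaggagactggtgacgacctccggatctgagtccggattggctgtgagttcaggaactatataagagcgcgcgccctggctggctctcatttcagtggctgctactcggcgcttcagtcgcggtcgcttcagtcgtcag
Among the 25 called higher genes with a window, GAAANNGAA matched in 3 (B2m, Fcgr4 and H2-T22) and GGGANTTTC in 2 (B2m and Cxcl1). Among the 19 called lower genes with a window, they matched in 4 and 1. The windows of H2-K1 and Tap1, also called higher, held no match to either of these strings of letters. Other forms of the elements were not searched for, so their absence from these windows is not shown. The general promoter motif CCAAT matched in 37.4% of all windows, 48.5% of those of called higher genes and 38.5% of those of called lower genes, and the hypoxia response core ACGTG in 19.6%, 39.4% and 34.6%, beside 27.7% of windows of the genes tested.

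Other genes of the interferon gamma response had mostly positive fold changes and 1 call. Irf1, a transcription factor induced by interferon gamma that drives class I genes, was at 80.1, 95.1 and 253 CPM in control and 308, 397 and 358 CPM in anti-PD-L1 (1.28 ± 0.32). Its adjusted p rounds to 0.05 and lies just under the threshold. It was the 1 called gene of 15 tested in the interferon gamma response list, where 14 fold changes were positive and the median was 0.68. Control replicate 3 again held the most, with 1644 CPM summed over the list beside 475 and 658 in the other controls and 1142, 2098 and 1643 in anti-PD-L1, so the sums overlapped. Cxcl10, a chemokine for T cells, did not pass (0.68 ± 0.34, adjusted p = 0.296). None of the 6 immunoproteasome genes was called, although 5 were positive. Psme2, a proteasome activator subunit, was at 552, 486 and 681 CPM in control and 1076, 968 and 1061 CPM in anti-PD-L1 without overlap (0.85 ± 0.22, adjusted p = 0.0555). Psmb9, a catalytic subunit, was at 22.9, 29.2 and 108 CPM in control and 163, 126 and 134 CPM in anti-PD-L1, also without overlap (1.30 ± 0.41, adjusted p = 0.103). The 30 tested constitutive proteasome genes had a median of -0.30 and no call. None of 10 type I interferon response genes was called (median 0.54), nor any of 7 MHC class II presentation genes (median 0.08).

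The first annotated start of Irf1 (RefSeq, GRCm38.p6, chr11:53769764-53770063, plus strand) is preceded by the gamma-activated site form TTCNNNGAA, in capitals, through which interferon gamma is known to act and which 8.3% of all windows hold on either strand. It is shown as the 1 interferon-induced factor called.
Irf1 promoter: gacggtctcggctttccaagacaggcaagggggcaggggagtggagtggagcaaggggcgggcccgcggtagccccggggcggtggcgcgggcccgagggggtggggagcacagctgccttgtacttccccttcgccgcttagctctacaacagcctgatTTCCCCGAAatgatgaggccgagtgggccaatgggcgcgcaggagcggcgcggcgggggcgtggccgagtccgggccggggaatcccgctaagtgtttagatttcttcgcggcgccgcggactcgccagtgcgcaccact
TTCNNNGAA matched in windows of 3 called higher genes (Fgl2, Irf1 and Ubb) and of 4 called lower genes.

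**Figure D2:**
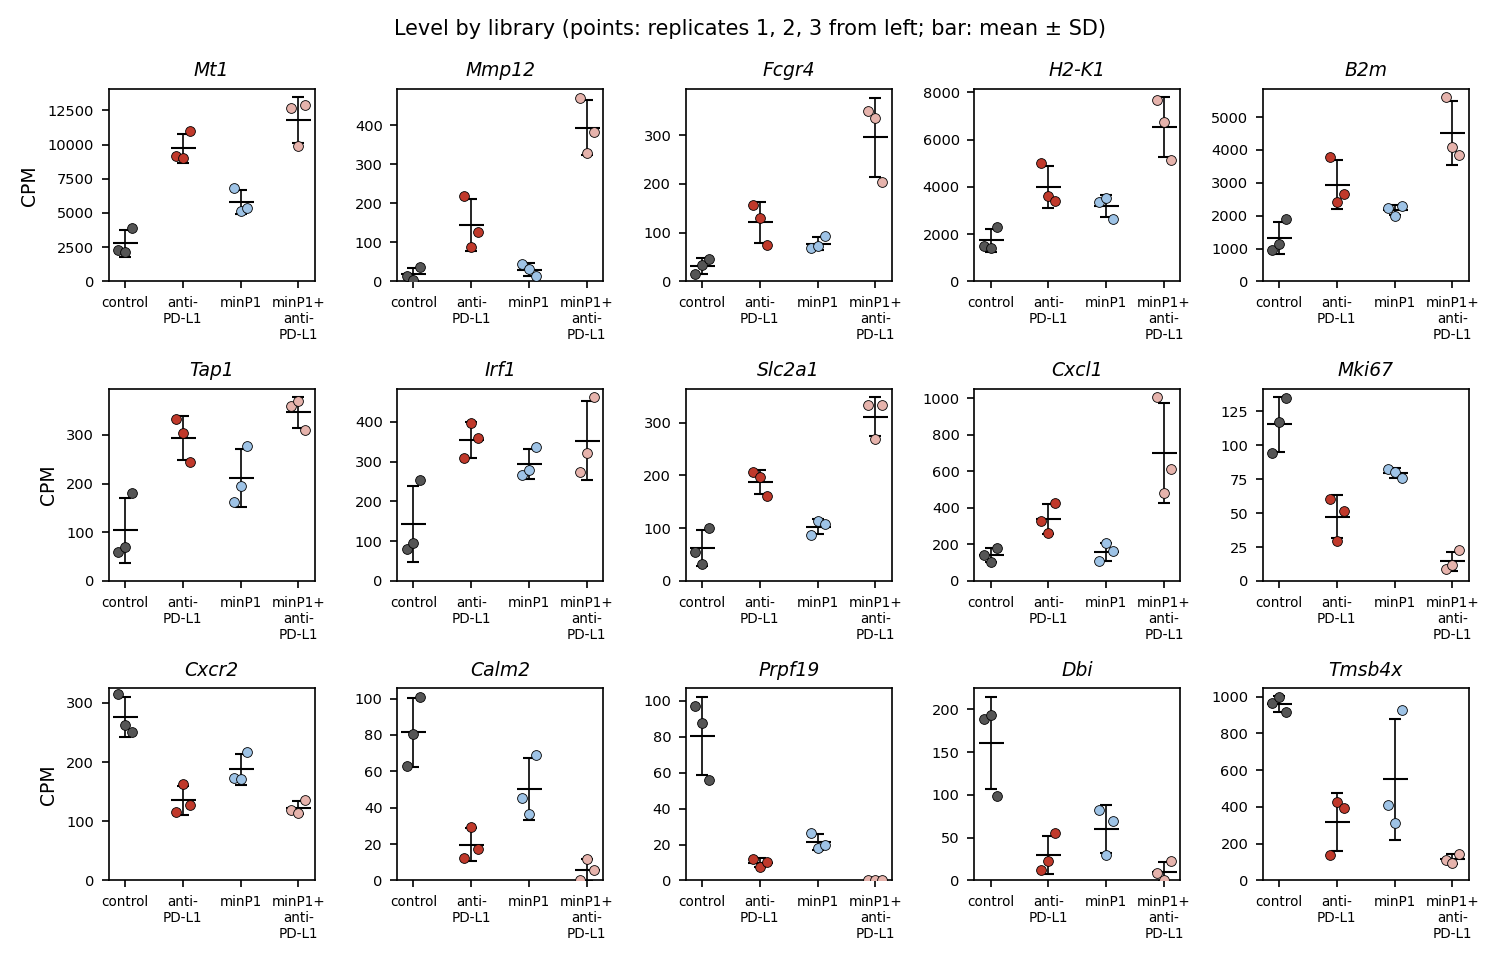
CPM in each library (points) with mean and SD (bars) for 15 called genes, in control and anti-PD-L1 and, in paler colours, in the minP1 groups. In the first 9 panels every anti-PD-L1 point lies above every control and in the last 6 below every control. The mean with minP1 alone lies between the control and the anti-PD-L1 mean in all 15. These genes were called for the gap between those means.

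Several genes of myeloid cells and of tissue remodelling rose. Mmp12 encodes macrophage elastase (plus strand of chromosome 9, 7344381 to 7369499) and had the largest increase among called genes. It was at 14.3, 3.66 and 35.8 CPM in control and 218, 89.0 and 127 CPM in anti-PD-L1 (2.78 ± 0.46, adjusted p = 0.00496). It was called under 14 of 17 alternatives. Fcgr4, an activating receptor for the Fc part of IgG on monocytes, macrophages and neutrophils, was at 14.3, 32.9 and 47.0 CPM in control and 157, 130 and 75.8 CPM in anti-PD-L1 (1.86 ± 0.38, adjusted p = 0.0293). The receptor Fcgr3 (0.11 ± 0.50) and the signalling chain Fcer1g (-0.16 ± 0.41), which Fcgr4 needs at the surface, had adjusted p-values of 0.936 and 0.878 and overlapped control. Fcgr1 and Fcgr2b, the high-affinity and the inhibitory Fc receptor, were too low to test, with 9 and 23 counts over the controls and 7 and 11 over the anti-PD-L1 tumours. Bst1, an ectoenzyme of myeloid and stromal cells, rose by 1.43 ± 0.34 (adjusted p = 0.0391). It was called under 7 of 17 alternatives, and at equal depth its fold change was 0.12 ± 0.63 (adjusted p = 0.952). Fgl2, a secreted fibrinogen-like protein of macrophages and regulatory T cells, rose by 1.31 ± 0.31 (adjusted p = 0.0357). Il1rl1, the receptor for interleukin 33, was at 195, 227 and 334 CPM in control and 465, 526 and 723 CPM in anti-PD-L1 (1.18 ± 0.26, adjusted p = 0.0324).

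Mmp12 was the 1 called gene among 10 matrix metalloproteinases and inhibitors tested (median 0.68). The collagenase Mmp13 was at 5.72, 18.3 and 22.4 CPM in control and 60.4, 55.6 and 37.9 CPM in anti-PD-L1 without overlap (1.65 ± 0.51, adjusted p = 0.1). The stromelysin Mmp3 gave 0.94 ± 0.44 (adjusted p = 0.262) and also did not overlap. No complement gene of 8 tested was called, although 7 were positive (median 0.72), and the list summed to 670 to 1129 CPM in control and 992 to 1360 in anti-PD-L1.

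In the chemokine system the ligand Cxcl1 and its receptor Cxcr2 moved in opposite directions. Cxcl1, which attracts neutrophils, was at 143, 106 and 181 CPM in control and 326, 263 and 427 CPM in anti-PD-L1 (1.22 ± 0.30, adjusted p = 0.0458). Cxcr2, carried by neutrophils, was at 315, 263 and 251 CPM in control and 115, 163 and 127 CPM in anti-PD-L1 (-1.02 ± 0.25, adjusted p = 0.0422). Ackr3, a receptor that removes the chemokine Cxcl12, rose by 1.10 ± 0.26 (adjusted p = 0.0357). Ccl8, a monocyte chemokine, fell just short of the threshold (1.41 ± 0.36, adjusted p = 0.0504), with 1 anti-PD-L1 library under the highest control. Cxcr4, the signalling receptor for Cxcl12, was at 0, 7.31 and 11.2 CPM in control and 54.4, 33.4 and 20.7 CPM in anti-PD-L1 (2.32 ± 0.70, adjusted p = 0.0952). Of 13 chemokines tested Cxcl1 was the call, and Cxcl2, its close relative, gave -0.04 ± 0.32 (adjusted p = 0.967). The Cxcl1 window is shown for its NF-kB motif GGGANTTTC, in capitals (RefSeq, GRCm38.p6, chr5:90890995-90891294, plus strand).
Cxcl1 promoter: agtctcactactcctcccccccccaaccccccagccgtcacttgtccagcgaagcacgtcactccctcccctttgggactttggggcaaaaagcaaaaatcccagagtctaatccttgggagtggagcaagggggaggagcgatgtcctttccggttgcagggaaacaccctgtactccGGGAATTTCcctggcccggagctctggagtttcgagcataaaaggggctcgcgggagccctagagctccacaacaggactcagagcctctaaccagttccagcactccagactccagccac
Feedback genes of NF-kB signalling were not called as a group, with 0 of 15 in either direction and a median of 0.09. Tnfaip3, an inhibitor of the pathway, was at 140, 102 and 206 CPM in control and 302, 322 and 320 CPM in anti-PD-L1 (1.05 ± 0.34, adjusted p = 0.108), while Nfkbia gave 0.09 ± 0.24 (adjusted p = 0.895).

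Marker genes of other cell types were summed in the same libraries. In bulk tissue fewer cells of a type and less RNA per cell cannot be told apart. Of 11 inflammatory monocyte markers in the tables, 8 were tested, none was called and 6 were positive (median 1.04). The summed level of the 11 was 1173 to 1583 CPM in control and 1783 to 2508 in anti-PD-L1. Fn1 alone made up 761 of the control mean of 1328 CPM and 1209 of the anti-PD-L1 mean of 2203 CPM. Macrophage markers summed to 1295 to 1910 CPM in anti-PD-L1 and overlapped control. Neutrophil markers summed to 329 to 404 CPM in control and 258 to 349 in anti-PD-L1, with Cxcr2 called lower and 5 of the 6 tested markers positive. Cxcr2 alone made up 276 of the control mean of 370 CPM and 135 of the anti-PD-L1 mean of 309 CPM. The sum therefore says little of the other neutrophil markers. S100a8, a defining neutrophil gene, had 2 counts over the 3 controls and 2 over the 3 treated tumours. Dendritic cell markers summed to 110 to 134 CPM in control and 165 to 218 in anti-PD-L1. Mast cell, basophil and eosinophil markers summed to 3.66 to 8.96 CPM in control and 26.0 to 66.5 in anti-PD-L1. The latter list held only 35 counts over the 6 libraries, and none of its members was tested. The fibroblast and matrix sum was 1469 to 1616 CPM in anti-PD-L1, below every control, and those of endothelial, erythroid and NK or cytotoxic cells overlapped. The part of these marker levels in the results above was not tested.

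T cell transcripts were scarce. The 13 T cell markers in the tables summed to 40.2 to 80.6 CPM in control and 124 to 187 CPM in anti-PD-L1. These sums did not overlap, but only Thy1, which fibroblasts also express, was tested and it did not pass. Thy1 made up 32.6 of the control mean of 59.4 CPM and 81.0 of the anti-PD-L1 mean of 146 CPM. In replicate 3 it held 31.35 of 80.6 CPM in control and 86.1 of 124 CPM in anti-PD-L1. The gap between the sums therefore rested on Thy1. The defining markers had a handful of counts. Cd3e had 1 over the controls and 4 over the treated tumours, Cd8a 4 and 0, Cd4 0 and 2, and Foxp3, the factor of regulatory T cells, 2 and 0. Ctla4, an inhibitory receptor of T cells, was at 2.86, 7.31 and 29.1 CPM in control and 60.4, 48.2 and 34.4 CPM in anti-PD-L1 without overlap (1.64 ± 0.58, adjusted p = 0.136). The antibody's own target, Cd274, had 8 counts in each group, and Pdcd1, the gene of PD-1, 0 and 2. Ifng had 2 and 0 counts, the cytotoxic granule gene Gzmb 6 and 7, the interferon gamma chemokine Cxcl9 36 and 17 and the interleukin 12 gene Il12b 3 and 2. A difference in these genes was not detectable at this depth.

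Single genes of glucose uptake, ubiquitin supply and metabolism rose. Slc2a1, the glucose transporter GLUT1, was at 54.4, 32.9 and 101 CPM in control and 206, 197 and 162 CPM in anti-PD-L1 (1.51 ± 0.31, adjusted p = 0.0293). Arrdc3, an alpha-arrestin, a family that removes membrane proteins from the cell surface, rose by 1.68 ± 0.38 (adjusted p = 0.0352), but at equal depth its fold change was 0.15 ± 0.70 (adjusted p = 0.946). These were the 2 calls among 6 glucose transport and arrestin genes tested (median 0.80), and the list summed to 452 to 475 CPM in control and 699 to 768 in anti-PD-L1. Txnip, the alpha-arrestin best known for restraining glucose uptake, gave 0.52 ± 0.34 (adjusted p = 0.429). None of 14 glycolytic enzymes was called (median -0.09). Ubb, a polyubiquitin gene, was at 2473, 1576 and 2006 CPM in control and 5524, 4063 and 5979 CPM in anti-PD-L1 (1.36 ± 0.25, adjusted p = 0.0119), and was called under 15 of 17 alternatives. Nampt, which recycles nicotinamide to NAD, rose by 0.97 ± 0.23 (adjusted p = 0.0391), and the cytokine Mif by 0.93 ± 0.21 (adjusted p = 0.0357). Bnip3, a hypoxia-induced mitophagy receptor, was at 149, 164 and 349 CPM in control and 538, 456 and 486 CPM in anti-PD-L1 (1.13 ± 0.29, adjusted p = 0.0509).

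AA467197, known as Nmes1, rose by 1.36 ± 0.28 (adjusted p = 0.0293). It encodes a small mitochondrial protein related to Ndufa4, a subunit of respiratory complex IV that it can replace in inflamed cells. It was at 155, 121 and 260 CPM in control and 351, 441 and 599 CPM in anti-PD-L1. Ndufa4 itself was at 189, 117 and 78.4 CPM in control and 30.2, 51.9 and 75.8 CPM in anti-PD-L1 (-1.20 ± 0.35, adjusted p = 0.0897). Neither pair of groups overlapped, but only AA467197 passed.

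Regulators of transcription and growth among the higher genes were Klf2, a factor of quiescent endothelium and lymphocytes, Cebpd, an acute-phase factor, Tob1, an antiproliferative protein, and Sertad1, a cell cycle cofactor. Klf2 was at 378, 486 and 685 CPM in control and 1547, 1290 and 703 CPM in anti-PD-L1, with replicate 3 only just above the highest control (1.18 ± 0.27, adjusted p = 0.0354). Cebpd rose by 1.16 ± 0.25 (adjusted p = 0.0324), Tob1 by 1.32 ± 0.29 (adjusted p = 0.0324) and Sertad1 by 1.36 ± 0.31 (adjusted p = 0.0354). Of 23 immediate early factors tested Klf2 was the 1 call (median 0.06). In the secretory pathway Krtcap2, a subunit of the complex that attaches N-glycans, rose by 1.49 ± 0.34 (adjusted p = 0.0352) and Golph3, a Golgi protein, by 1.19 ± 0.24 (adjusted p = 0.0283). The remaining higher genes were Cdk15 (1.94), the noncoding Gm31282 (2.68) and Mir6236 (2.03), and Gm8430 (0.96), a processed copy of Rps27a. The 5′ end of Gm8430 matches that of Rps27a, so tags of the parent gene, which gave 0.74 ± 0.23 (adjusted p = 0.103), may be counted there.

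**Figure D3:**
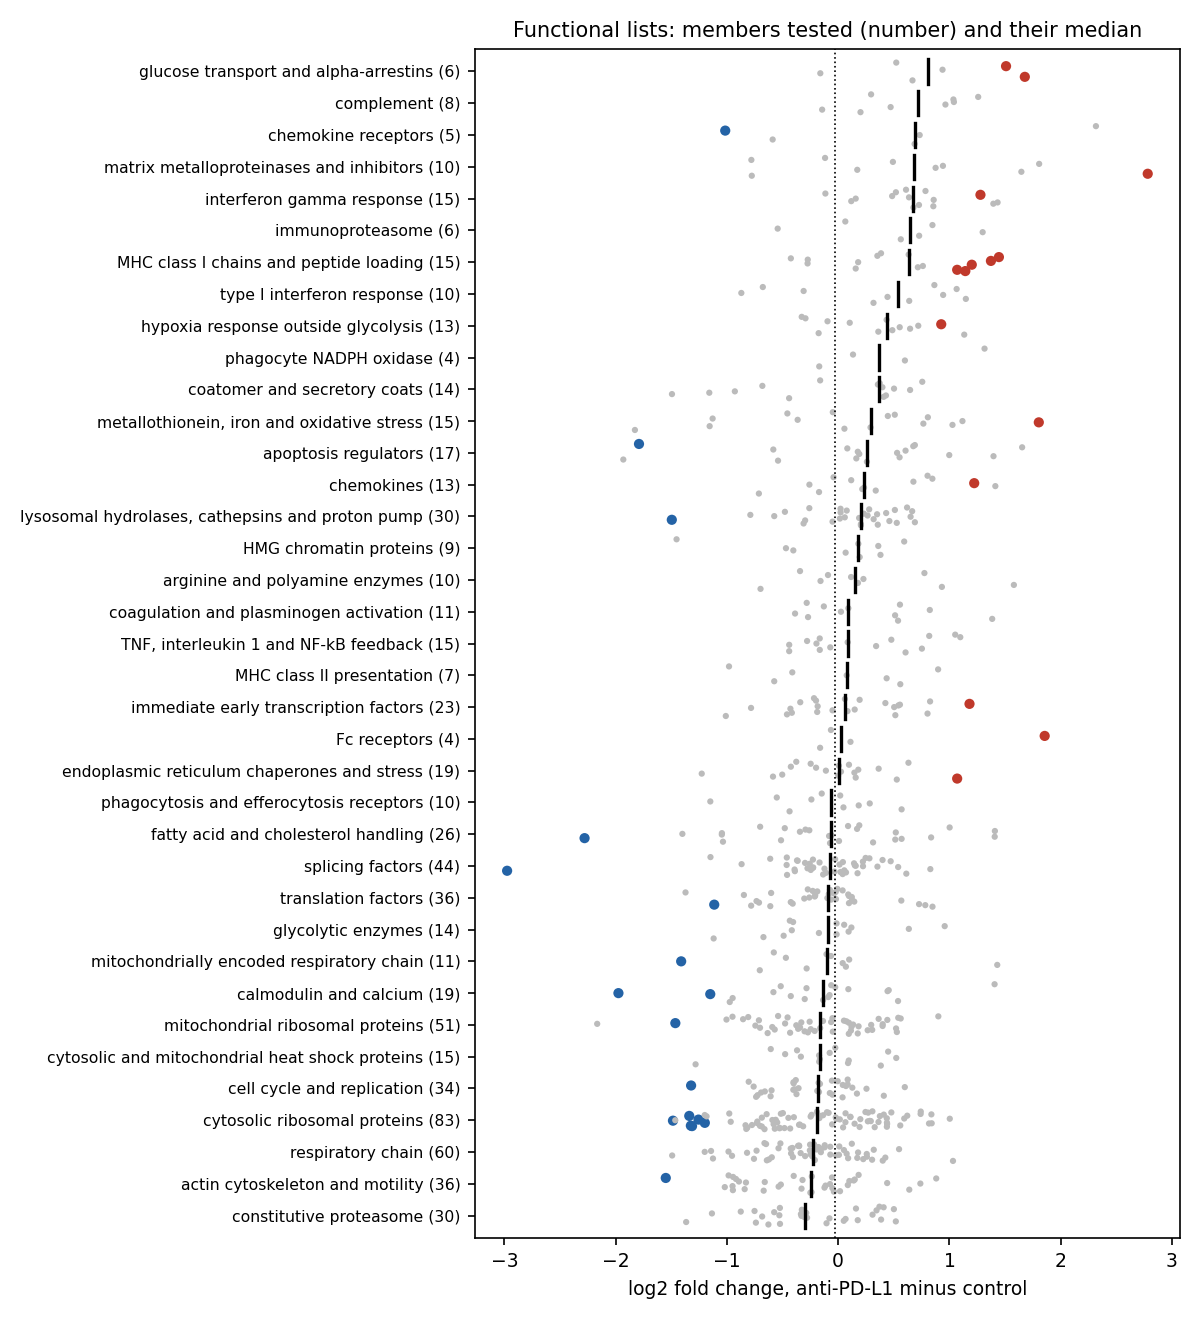
Log2 fold change of anti-PD-L1 over control for each tested member (points) of the functional lists with at least 4 tested members, with the list's median (black bar), and the median of all genes tested (dotted line, -0.03). Red members were called higher and blue lower, and the 5 red members of the MHC class I list and the 6 blue members of the cytosolic ribosomal list are the most in any list.

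Lower genes were led by Prpf19, a ubiquitin ligase of the spliceosome. It was at 97.3, 87.8 and 56.0 CPM in control and 12.1, 7.42 and 10.3 CPM in anti-PD-L1 (-2.98 ± 0.51, adjusted p = 0.00803). The other 43 splicing factors tested had no call, and the list's median was -0.07, close to that of all genes. The 5′ end of Prpf19 matches that of 1 other gene, which is not among the symbols of the tables.

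Cytosolic ribosomal protein genes split by their level. Of 83 tested, 6 were called lower and none higher (7.23% lower, beside 0.57% of all genes tested), while the summed level of the list was 189200 ± 17230 CPM in control and 207100 ± 14460 in anti-PD-L1. The called genes were Rpl4, Rps19, Rpl23a, Rpl22l1, Rpl7a and Rpl35. Rpl35 was at 1694, 1865 and 1800 CPM in control and 429, 775 and 1109 CPM in anti-PD-L1 (-1.20 ± 0.29, adjusted p = 0.0391). Rpl4 was at 501, 742 and 1017 CPM in control and 121, 330 and 338 CPM in anti-PD-L1 (-1.49 ± 0.34, adjusted p = 0.0355), and Rpl23a at 776, 980 and 1093 CPM and at 200, 426 and 492 CPM (-1.32 ± 0.28, adjusted p = 0.0324). All 3 genes were lowest in anti-PD-L1 replicate 1. At the other end Rplp0, the stalk protein, was at 5409, 3141 and 3110 CPM in control and 10960, 5324 and 7101 CPM in anti-PD-L1 (1.0 ± 0.30, adjusted p = 0.0897), and Rpl32 gave 0.82 ± 0.26 (adjusted p = 0.103). Among the 42 more abundant genes (at least 1219 CPM over the 12 libraries) 26 fold changes were positive, with a median of 0.20 and no call. Among the 41 less abundant ones 34 were negative, with a median of -0.59 and all 6 calls. Over the 83 genes Spearman's rho between level and fold change was 0.67 and Pearson's r 0.65, beside 0.17 and 0.15 over the 5443 genes tested. Both measures come from the same libraries and genes are not replicates, so these are descriptions. A 5′ tag is counted once for each transcript end, so levels were not divided by length.

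The ribosomal calls rested on single libraries. None of the list was called lower without control replicate 2, without anti-PD-L1 replicate 2 or with either covariate, 1 was without anti-PD-L1 replicate 1, and DESeq2 called 12 lower and 4 higher. Of the 6, Rps19, Rpl23a, Rpl22l1, Rpl7a and Rpl35 share their 5′ end with other genes. So do the lower pseudogene symbols Gm5854 (-1.81), a copy of Rpl7a, Gm10045 (-1.45), of Rpl21, and Gm10362 (-1.26), of Rpl17. How tags that match several places were counted is not given in the sources used here. Over all called genes, 14 of the 57 with a GENCODE transcript shared their first bases with another gene, 3 of them higher and 11 lower. The share among all genes tested was not measured, so whether these counts are unusual cannot be judged.

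**Figure D4:**
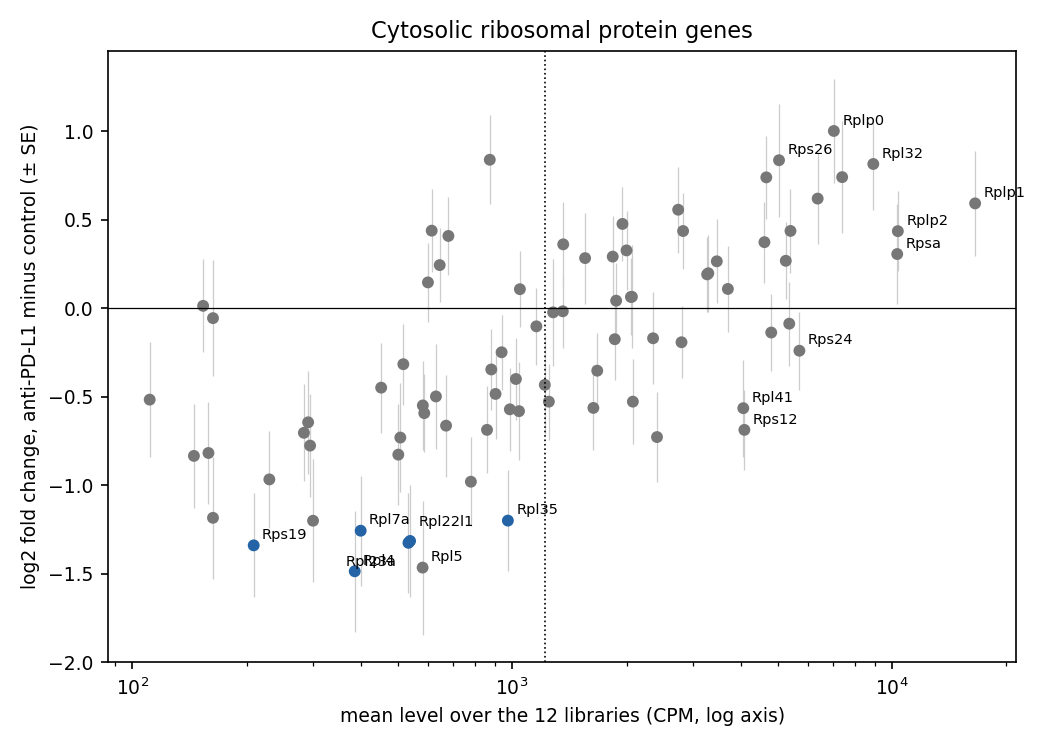
Log2 fold change of anti-PD-L1 over control with its SE (vertical axis) against the mean level over the 12 libraries (horizontal log axis, CPM) for the 83 tested cytosolic ribosomal protein genes. The 6 called lower genes (blue) lie left of the median level (dotted line), and 26 of the 42 at or right of it lie above 0.

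Other parts of the translation machinery gave single calls. Eef1g, a subunit of elongation factor 1, was at 341, 369 and 345 CPM in control and 133, 134 and 214 CPM in anti-PD-L1 (-1.11 ± 0.28, adjusted p = 0.0458), while Eef2, which moves the ribosome along, gave 0.73 ± 0.25 (adjusted p = 0.128). Of 36 translation factors tested Eef1g was the 1 called. Eef1e1, a scaffold of the aminoacyl-tRNA synthetase complex, fell by 1.69 ± 0.41 on the log2 scale (adjusted p = 0.0391), and Ola1, an Obg-like ATPase, by 1.42 ± 0.32 (adjusted p = 0.0342). Mrpl9, of the mitochondrial ribosome, fell by 1.46 ± 0.37 (adjusted p = 0.05, below the cut-off unrounded) and was the 1 call of 51 tested genes of its kind. Cnot6, a deadenylase that shortens mRNA tails, fell by 1.54 ± 0.36 (adjusted p = 0.0357).

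The mitochondrial genome's own transcripts did not move together. MT-Nd1, of complex I, was at 269, 373 and 314 CPM in control and 48.4, 96.4 and 196 CPM in anti-PD-L1 (-1.41 ± 0.33, adjusted p = 0.0357). MT-Co3, of complex IV, was at 2247, 1605 and 1552 CPM in control and 6630, 3396 and 4549 CPM in anti-PD-L1 (1.43 ± 0.37, adjusted p = 0.0509). The groups overlapped in neither gene, and both are cut from the same long precursor RNA. Of 60 nuclear respiratory chain genes tested 43 were negative (median -0.23) and none was called.

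Calm2 and Calm3, which encode the same calcium-binding protein, calmodulin, were lower in every anti-PD-L1 library than in any control. Calm2 was at 63.0, 80.4 and 101 CPM in control and 12.1, 29.7 and 17.2 CPM in anti-PD-L1 (-1.98 ± 0.44, adjusted p = 0.0324). Calm3 was at 71.5, 69.5 and 85.1 CPM in control and 42.3, 48.2 and 58.5 CPM in anti-PD-L1 and did not pass (-0.58 ± 0.34, adjusted p = 0.38). The 19 calmodulin and calcium genes tested had a median of -0.14.

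The cytoskeleton list held 1 call of 36 tested, with 26 negative and a median of -0.25. That call was Tmsb4x, thymosin beta 4, which holds actin monomers. It was at 967, 998 and 916 CPM in control and 139, 426 and 396 CPM in anti-PD-L1 (-1.55 ± 0.34, adjusted p = 0.0324). LOC108168233, a predicted gene, had levels near those of Tmsb4x in these 6 libraries, with 750, 991 and 927 CPM in control and 139, 493 and 403 CPM in anti-PD-L1 (-1.33 ± 0.31, adjusted p = 0.0354). The related Tmsb10 was at 1030, 742 and 842 CPM in control and 2025, 1472 and 1336 CPM in anti-PD-L1, the opposite direction without overlap (0.88 ± 0.23, adjusted p = 0.0559). Sept7, a septin filament protein, fell by 1.21 ± 0.25 on the log2 scale (adjusted p = 0.0293).

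Dbi, a carrier of fatty acyl-CoA, was at 189, 194 and 98.5 CPM in control and 12.1, 22.2 and 55.1 CPM in anti-PD-L1 (-2.28 ± 0.46, adjusted p = 0.0283). It was the 1 call of 26 genes of fatty acid and cholesterol handling. Hmgcs1, an enzyme of cholesterol synthesis, was at 169, 154 and 91.8 CPM in control and 60.4, 51.9 and 44.8 CPM in anti-PD-L1 and just missed the threshold (-1.40 ± 0.36, adjusted p = 0.0504), and Insig1, a sterol sensor, gave -1.04 ± 0.35 (adjusted p = 0.117). Cd63, a tetraspanin of lysosomes and exosomes, was at 229, 234 and 235 CPM in control and 30.2, 100 and 103 CPM in anti-PD-L1 (-1.50 ± 0.38, adjusted p = 0.05, below the cut-off unrounded). The other 29 tested lysosomal genes had no call, and 22 of the 30 were positive. Their summed level was 7510 to 8744 CPM in control and 9829 to 10340 CPM in anti-PD-L1 without overlap.

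Mki67, the proliferation marker Ki-67, was at 94.5, 117 and 134 CPM in control and 60.4, 29.7 and 51.7 CPM in anti-PD-L1 (-1.32 ± 0.33, adjusted p = 0.0458). It was the 1 call of 34 cell cycle and replication genes, of which 24 were negative (median -0.18), and the list summed to 8089 to 8981 CPM in control and 7090 to 7249 in anti-PD-L1. In the apoptosis list Xiap, a caspase inhibitor, was the 1 call of 17 tested (-1.79 ± 0.45, adjusted p = 0.05, below the cut-off unrounded). Bax, which opens the mitochondrial outer membrane, gave -1.93 ± 0.52 (adjusted p = 0.0616) and the death receptor Fas 1.65 ± 0.45 (adjusted p = 0.0625), both without overlap. Hbb-b2, a beta globin chain of red cells with near-identical copies that can share its tags, fell by 2.69 ± 0.51 on the log2 scale (adjusted p = 0.0169), beside erythroid and platelet marker sums of 1442 to 2819 CPM in control and 1064 to 2515 in anti-PD-L1. The remaining lower genes were Rex1bd (-1.64), Gm41984 (-1.99), the noncoding Gm37065 (-1.98) and LOC108168870 (-2.00). Gm41984 was at 229, 377 and 311 CPM in control and 84.6, 74.2 and 72.3 CPM in anti-PD-L1 and was called under 15 of 17 alternatives (adjusted p = 0.00496).

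Set beside the other lone treatment, anti-PD-L1 and minP1 tumours differed in no gene by the edgeR test (0 of 5443 called, smallest adjusted p = 0.202). An unadjusted p under 0.05 was reached by 316 genes, and DESeq2 and limma voom also called 0. For 59 of the 61 genes the minP1 mean lay between the control and the anti-PD-L1 mean, beside 2729 of all 5443. The 61 were called for a wide gap between those means, which favours another mean falling between them. Mmp12 had the smallest unadjusted p (5.3e-05), with 45.2, 33.0 and 13.2 CPM in minP1, all below the 3 anti-PD-L1 libraries (2.21 in anti-PD-L1 over minP1). Mt1 was at 6837, 5181 and 5401 CPM in minP1, above every control and below every anti-PD-L1 library. H2-K1, at 3364, 3512 and 2648 CPM in minP1, overlapped anti-PD-L1. Of the 61 genes, 27 did not overlap between anti-PD-L1 and minP1, beside 11.8% of all genes tested. The same anti-PD-L1 libraries served to call the 61, so this excess follows in part from that choice.

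The antibody was also given on top of the peptide, in 3 mice, which were compared with the 3 given minP1 alone. These 6 libraries enter neither mean of the comparison with control, although the fit estimates the spread from all 12. In minP1 plus anti-PD-L1 against minP1, 1088 of 5443 genes were called (20%), 500 higher (9.19%) and 588 lower (10.8%). Of the 61 genes, 59 moved the same way (96.7%, beside 72.1% of all genes tested), and 49 were called in the same direction, 23 of 30 higher and 26 of 31 lower. None was called in the opposite direction. The libraries with both treatments were shallower than those with minP1 alone, at 133917 to 196109 counts against 276203 to 322613. Bc1 and Lrrc17 took 2.49% to 6.32% of their counts, against 1.5% to 4.17% with minP1. The part of these library differences in the shared direction was not tested. The median of the 31 lower genes was -1.46 in anti-PD-L1 against control and -2.35 with the peptide, and that of the 30 higher genes 1.34 and 1.06. Mmp12 reached 470, 328 and 384 CPM in tumours with both treatments (3.69 over minP1), and Prpf19 was at 0 CPM in all 3. The 2 genes that did not move the same way were Cebpd (1.16 without and -0.14 with the peptide) and Mir6236 (2.03 and -0.54). Klf2 also stood at 640, 752 and 592 CPM with both treatments beside 580, 743 and 586 CPM with minP1 (0.06), and Irf1 at 0.28. The difference between both antibody changes was tested as an interaction, and no gene passed (0 of 5443, smallest adjusted p = 0.0705, 599 with an unadjusted p under 0.05), so none of these genes is shown to respond differently with the peptide.

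**Figure D5:**
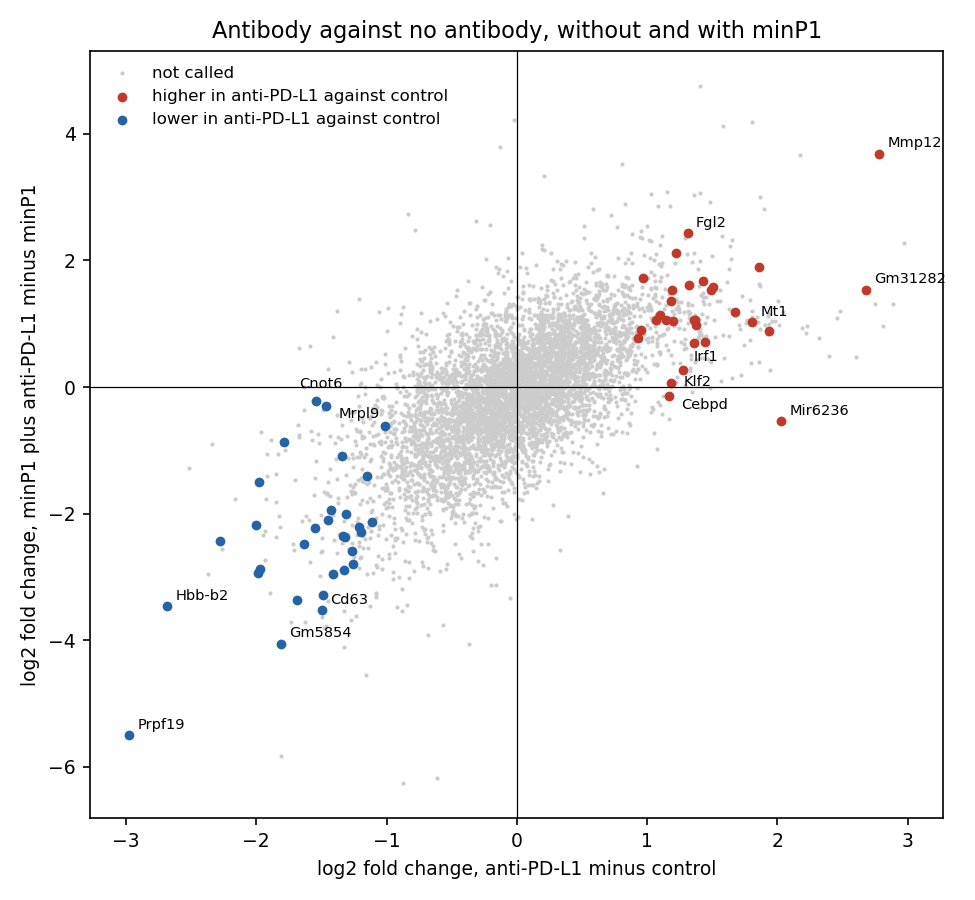
Log2 fold change for the antibody on top of minP1 (vertical axis) against that for the antibody alone (horizontal axis), for the 5443 genes tested, with the genes called for the antibody alone in colour. All 31 lower genes lie below 0 on both axes, and 28 of the 30 higher genes lie above 0 on both.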

How the data were processed

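Each sample's table, as the authors deposited it, holds raw whole-number counts by gene symbol. The tools named per the submitters' processing notes are Bowtie2 2.2.5, R 3.6.1 and DESeq2, with mm10 as the genome. What each tool did, how tags were counted and annotated, and how strand and multiply matching tags were treated is not given in the sources used here, so genes with near-identical copies or antisense neighbours are uncertain. Reads carry no recorded molecular identifiers and are not independent molecules.

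From these counts, genes were kept by filterByExpr of edgeR 4.0.16 (R 4.3.3) at its defaults, which left 5443 genes with 89.8% to 93.6% of each library's counts. Counts were scaled by TMM factors, and CPM are counts divided by the scaled sum over these genes. The test was edgeR's quasi-likelihood test on all 12 samples with 1 mean per group, with Benjamini-Hochberg adjustment. All groups share 1 estimate of the spread (biological coefficient of variation 22.5%). An exact permutation test of 3 against 3 cannot go below 0.1 and was not used. On simulated counts at these depths, 30.9% of genes changed 2-fold and 86.3% of genes changed 4-fold were recovered over 5052 genes. Of unchanged genes 0.165% were called. The simulated counts were drawn independently for each gene, without differences shared across a library such as those of the first principal component. These rates therefore need not hold for the real libraries.

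The comparison, gene lists, motifs and naming rule were chosen with earlier results of these data known, so lists have no test. The rule named the 12 called genes with the largest change in each direction, each list's called members or up to 3 with the smallest p, a set of genes of interest, and all other called genes. Not every gene taken is described, and some items are not reported here. Alternatives were other size factors, filters on low counts, DESeq2 1.42.0, limma voom (limma 3.58.1), only the groups compared, a replicate block, equal depth, a Bc1 or detected-gene covariate, and each replicate left out. Promoter windows are from RefSeq, and gene positions and transcript 5′ ends from GENCODE vM21 (GRCm38, the build of mm10). Shared 5′ ends are alignments of at least 60 of the first 100 bases at 95% identity or more.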

Additional observations from a re-analysis of the deposited data

How the results depend on the processing

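All 61 called genes kept their direction in every alternative that tested them. The number called in anti-PD-L1 against control, with those higher and those lower, was 167 (103 and 64) with no filter on low counts, 99 (54 higher) with a stricter filter, 106 (69 higher) with DESeq2, 126 (73 and 53) when only the groups compared were fitted, 22 (12 and 10) at equal depth, 23 (3 lower) with the Bc1 covariate and 1 (1 and 0) with the detected-gene covariate. With the replicate block it was 173 (92 and 81). Whether replicate numbers pair these samples was not settled. The deviations of same-numbered samples correlated at 0.134, 0.084 and 0.059. Control replicate 3 correlated best with anti-PD-L1 replicate 2 (0.116), and all other differently numbered samples correlated negatively, between -0.16 and -0.013. Leaving out 1 replicate at a time gave 1 to 106 called genes, 1 to 51 higher and 0 to 55 lower. Against minP1, 4 genes were called with no filter on low counts, 1 with the replicate block and 0 to 2 with 1 replicate left out. The share of called genes moving the same way on top of minP1 was 83.3% to 100% with 1 replicate left out, and 100% at equal depth (22 genes) and with the detected-gene covariate (1 gene). The cause of these differences was not tested. Fewer genes were tested at equal depth (2913). Depth was 188008 to 473273 counts per library, at which 30.9% of simulated 2-fold changes were recovered.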
